A study of Jaculus jaculus with 29 samples.

Results

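Osteopontin (Spp1), the transmembrane glycoprotein Gpnmb and 7 receptor and phagocyte genes were followed in the supraoptic nucleus of the lesser Egyptian jerboa. Levels in this desert rodent were compared over water restriction and regained water. The genes were listed by symbol: Spp1, Gpnmb, Cd44, Itgav, Itgb1, Itgb5, Lgals3, Trem2 and Cd68. They are 9 of the 29170 genes in the count table. All 9 passed the filter on low counts, which left 17558 genes. Spp1 and Gpnmb were on the list because they were higher in Dehydrated than in Control, so their difference in that comparison is given as a description with no test, and the same holds for Rehydrated against Dehydrated, which uses the same Dehydrated libraries.

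Polyadenylated RNA was sequenced from tissue punches of individually housed animals in 29 libraries. Control animals (10 libraries, 5 female and 5 male by their labels) drank freely. Water was restricted for 11 days in Dehydrated (10 libraries, 6 female and 4 male), and for 7 days in Rehydrated (9 libraries, 4 female and 5 male), whose animals then drank for 3 days. Each numbered sample was read as 1 animal, and the tests measure the spread between these samples. A punch holds neurons, glia, vessels and phagocytes together, and a higher level from more cells of a type cannot be told apart from more RNA per cell.

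Osteopontin is a secreted phosphoprotein, first known from bone matrix, that binds cells through integrins and through the hyaluronan receptor Cd44. In brain it is best known as a product of activated microglia and macrophages, and some neurons also make it. Gpnmb sits in the membranes of lysosomes and at the cell surface, is shed by metalloproteases, and is often named beside Spp1 as a mark of lipid-laden or activated phagocytes. The supraoptic nucleus itself is dominated by magnocellular neurons, which make vasopressin (Avp) and oxytocin, and which raise Avp and the opioid precursor Pdyn in dehydration.

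Total counts per library ran from 10797577 to 18856620, and levels are given as CPM, counts scaled to one common library total. Control M01 had the lowest total and stood apart: its median absolute difference from the group median was 0.53 on the log2 scale over all tested genes, against 0.098 to 0.19 in the other 28 libraries. It also had the highest summed level of homeostatic microglia genes, 733 CPM against at most 465 CPM elsewhere, and of border macrophage genes, 737 CPM against at most 164 CPM. Control F03, Control M05 and Dehydrated M02 have a name letter that differs from their sex label. Results are therefore also given without Control M01, and without these 3 libraries where it matters.

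Levels of different genes were compared per kilobase of exon, in CPM per kilobase. In Control the order was Spp1 (111 ± 28.2, SD, n = 10), Itgb1 (46.9 ± 2.76), Itgav (26.1 ± 8.75), Lgals3 (19.5 ± 7.14), Itgb5 (15.5 ± 3.31), Cd68 (5.47 ± 2.20), Trem2 (4.06 ± 1.54), Cd44 (3.79 ± 1.18) and Gpnmb (0.703 ± 0.541). Spp1 lay above Itgb1 and Itgb1 above Itgav in 10 of 10 libraries with no overlap of their ranges. Neighbours that overlapped were Itgav with Lgals3, Lgals3 with Itgb5, Cd68 with Trem2, and Trem2 with Cd44. Gpnmb lay below Cd44 in all 10 Control libraries. In Dehydrated Spp1 stood at 356 ± 186 CPM per kilobase (n = 10), and Gpnmb, at 4.45 ± 2.72, had moved into the range of Cd68 (5.21 ± 0.851), Cd44 (3.83 ± 1.07) and Trem2 (3.72 ± 1.16). In Rehydrated Spp1 was at 111 ± 20.1 (n = 9) and Gpnmb at 1.36 ± 0.466, again the lowest of the 9.

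The ligand Spp1 lies on chromosome 2 of the mJacJac1 assembly (110555504 to 110562860, minus strand, ENSJJAG00000037407). Its level in Control ran from 128 CPM in F02 over a median of 168 to 258 CPM in M01. In Dehydrated it ran from 141 CPM in F07 over 560 to 1121 CPM in F05. In Rehydrated it ran from 124 CPM in M08 over 186 to 215 CPM in M05. Of the 10 Dehydrated libraries 8 lay above the highest Control library, F07 lay inside the Control range, and M02, at 220 CPM, lay below the 2 highest Control libraries. None of the 9 Rehydrated libraries lay above the Control range, and all 9 lay below the Dehydrated median.

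Means were 176 ± 44.7 CPM in Control, 564 ± 294 CPM in Dehydrated and 176 ± 31.8 CPM in Rehydrated. Spp1 was thus higher in Dehydrated by 1.69 on the log2 scale (SE 0.25), and in Rehydrated it differed from Dehydrated by -1.69 (SE 0.26). Its spread widened with its level: the coefficient of variation was 25.4% in Control, 52.2% in Dehydrated and 18.02% in Rehydrated. The highest Dehydrated library held 7.93 times the lowest, against 2.02 times in Control and 1.73 times in Rehydrated. In the authors' deposited table the log2 fold change of Spp1 was 1.76 in Dehydrated against Control. That table may not rest on the same libraries, as other values in it lay near those fitted here without Control M01. For Itgav it gave 0.14, against 0.14 without Control M01 and 0.26 with all libraries. For Cd68 it gave 0.11, against 0.12 and -0.02.

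Gpnmb is a far scarcer transcript, on chromosome 16 (36015609 to 36046948, plus strand, ENSJJAG00000016316), with 0 to 393 fragments per library. Control libraries ran from 0 CPM in F03 over a median of 1.71 to 4.30 CPM in F01. Dehydrated libraries ran from 2.18 CPM in F07 over 9.44 to 23.1 CPM in F05. Rehydrated libraries ran from 1.15 CPM in F04 over 3.65 to 5.29 CPM in F05. As with Spp1, 8 of 10 Dehydrated libraries lay above all Control libraries; the exceptions were F07 and M09.

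The log2 difference of Gpnmb between Dehydrated and Control was 2.64 (SE 0.43), from means of 11.6 ± 7.08 and 1.83 ± 1.41 CPM, and between Rehydrated and Dehydrated it was -1.65 (SE 0.42). The authors' deposited table, which may not rest on the same libraries, gives 2.69 for Dehydrated against Control. Dehydrated F07 was the lowest and F05 the highest Dehydrated library for Spp1, for Gpnmb and for Avp alike, with Avp at 1512 CPM in F07 and 5179 CPM in F05.

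**Figure D1:**
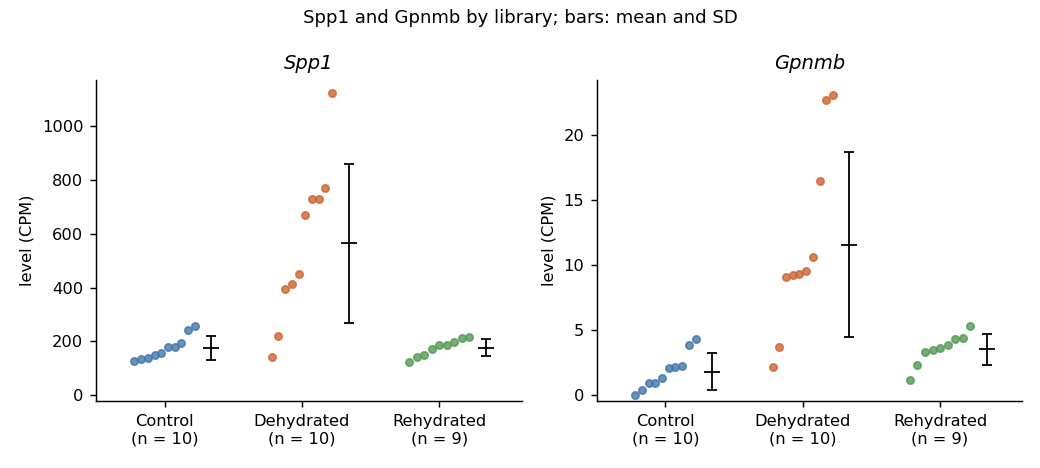
Level of Spp1 (left) and Gpnmb (right) in CPM on linear axes, with 1 point for each library and the mean with its SD beside the 10 Control, 10 Dehydrated and 9 Rehydrated libraries. For both genes 8 of 10 Dehydrated points lie above the highest Control point, and all Rehydrated points lie below the Dehydrated median.

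Rehydrated against Control compared animals restricted for 7 days and then given 3 days of water with animals that drank freely. No library was taken at the end of 7 days of restriction, so whether Spp1 and Gpnmb had risen in the Rehydrated animals is not known. Between Rehydrated and Dehydrated, shorter restriction cannot be told apart from regained water. The Rehydrated libraries had no part in the choice of Spp1 and Gpnmb, but the Control libraries did, so for these genes the test is not independent of the choice. By the quasi-likelihood test of edgeR, adjusted over all genes by Benjamini-Hochberg, 0 of the 9 genes passed, against a background of 0.0% (0 of 17558 genes, with 1313 at an unadjusted p under 0.05 and 18 genes called by DESeq2). Spp1 differed by 0.00 on the log2 scale (SE 0.25, adjusted p = 0.998), with 6 of 9 Rehydrated libraries above the Control median. Gpnmb was at 3.54 ± 1.21 CPM, a log2 difference of 0.99 (SE 0.44, adjusted p = 0.634, unadjusted p = 0.0317). For Gpnmb 8 of 9 Rehydrated libraries lay above the Control median and 3 of 9 above the highest Control library. Over the left-out libraries and other settings the Gpnmb difference ran from 0.84 to 1.68 and did not pass. Without Control M01 the 2 differences were 0.08 (SE 0.27) and 1.04 (SE 0.48).

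Differences of the receptor and phagocyte genes from Control were small beside those of Spp1 and Gpnmb. Of the 9 genes, Spp1 and Gpnmb were past the threshold of 0.05 in Dehydrated against Control, where the background was 0.125% (22 of 17558 genes, 0.114% higher and 0.0114% lower); as that comparison chose them, nothing is read from the count. In Rehydrated against Dehydrated 0.0228% of all genes were past it (4 genes, all lower). Spp1 was among them with all groups fitted and not with only the compared groups, and nothing is read from this either. No gene of the 9 had groups whose libraries did not overlap, beside a background of 0.0% in either comparison with Control and 0.0057% in Rehydrated against Dehydrated. The median log2 difference of the 9 between Dehydrated and Control was 0.09, and 0.14 without Control M01, against 0.00 over all tested genes.

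Cd44, the hyaluronan receptor that also binds osteopontin (chromosome 8, 43807292 to 43904605), had medians of 12.0 CPM in Control, 14.4 CPM in Dehydrated and 14.04 CPM in Rehydrated. Its libraries spanned 8.09 to 19.7, 6.59 to 20.1 and 8.50 to 18.5 CPM, so the 3 groups overlapped. The log2 difference was 0.02 (SE 0.18) in Dehydrated and 0.01 (SE 0.19) in Rehydrated, both against Control.

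Itgav encodes the alpha-v integrin chain that pairs with several beta chains to bind osteopontin (chromosome 4, 52782218 to 52878075). Its level was 93.0 to 149 CPM in 9 Control libraries and 18.5 CPM in Control M01. Dehydrated libraries spanned 107 to 156 CPM around a median of 125, and Rehydrated libraries 101 to 149 CPM around 122. The log2 difference between Dehydrated and Control was 0.26 (SE 0.18) with all libraries and 0.14 (SE 0.09) without Control M01. In Rehydrated against Control it was 0.20 (SE 0.19) and 0.06 (SE 0.09).

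Itgb1, the common beta-1 chain (chromosome 5, 34801733 to 34848051), had the smallest spread relative to its mean among the 9 genes in each group. It spanned 160 to 196 CPM in Control, 137 to 193 CPM in Dehydrated and 157 to 217 CPM in Rehydrated, and its log2 difference was -0.06 (SE 0.06) in Dehydrated and 0.00 (SE 0.06) in Rehydrated. Itgb5, the beta-5 chain that pairs with alpha-v (chromosome 4, 157078052 to 157226839), had medians of 46.2, 54.6 and 56.9 CPM in Control, Dehydrated and Rehydrated. Its log2 differences against Control were 0.10 (SE 0.10) in Dehydrated and 0.12 (SE 0.10) in Rehydrated.

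Lgals3, the secreted lectin galectin-3 made by activated phagocytes (chromosome 7, 109757943 to 109778311), had medians of 20.8, 20.1 and 19.1 CPM. Its log2 difference from Control was 0.09 (SE 0.19) in Dehydrated and -0.02 (SE 0.20) in Rehydrated. Trem2, the lipid-sensing receptor of microglia (chromosome 8, 9530806 to 9540992), lay between 2.09 and 7.14 CPM in all libraries. It had 26 to 120 fragments per library, and its differences were -0.10 (SE 0.22) and -0.14 (SE 0.23).

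Cd68, a lysosomal membrane protein of phagocytes (chromosome 12, 5698261 to 5700354), had medians of 6.61, 7.09 and 5.79 CPM and differences of -0.02 (SE 0.18) and -0.21 (SE 0.18). The highest Cd68 value, 15.2 CPM, was that of Control M01; without it the differences were 0.12 (SE 0.15) and -0.05 (SE 0.16). Its gene model overlaps a second model on the same strand with 65766 fragments over all libraries against 3233 for Cd68, so reads of the shared stretch are uncertain.

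**Figure D2:**
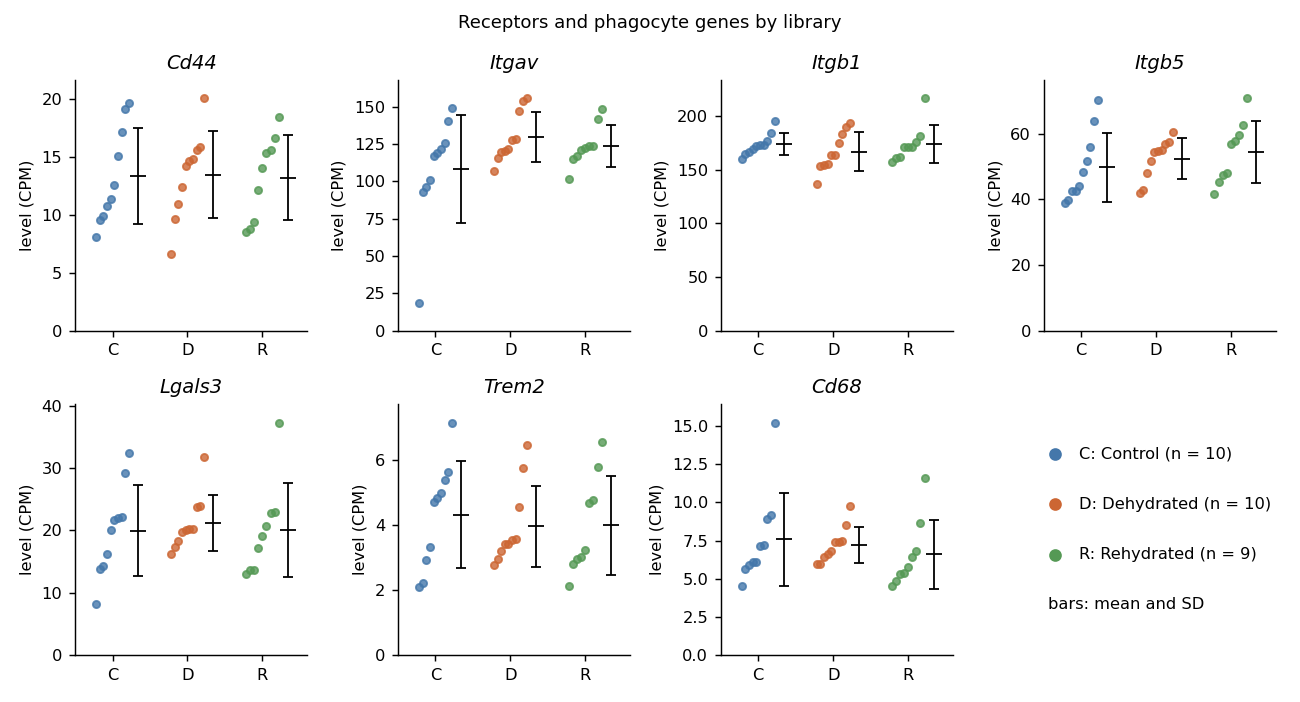
Level in CPM of the 7 receptor and phagocyte genes by library on linear axes from 0, with the mean and SD of Control (C, n = 10), Dehydrated (D, n = 10) and Rehydrated (R, n = 9). The 3 groups overlap in every panel, and the low Itgav point of 18.5 CPM and the high Cd68 point of 15.2 CPM are both Control M01.

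**Figure D3:**
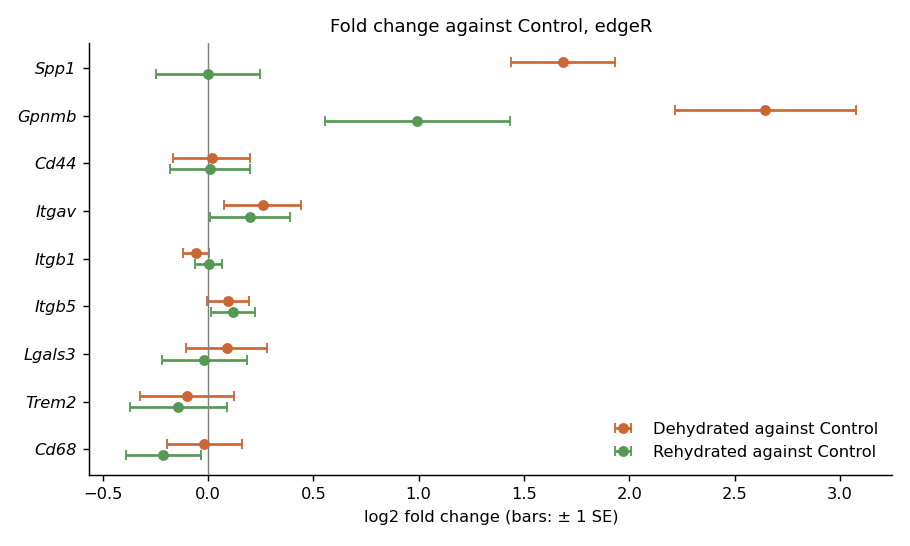
Log2 fold change against Control of the 9 genes in Dehydrated and in Rehydrated, as points with bars of 1 SE on each side. Spp1 and Gpnmb lie at 1.69 and 2.64 in Dehydrated, and the other 7 genes lie between -0.10 and 0.26.

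Sex was compared because both sexes were in each group and the list was not chosen on it. The log2 fold change of Spp1 between Dehydrated and Control was 1.73 (SE 0.35) in females and 1.64 (SE 0.37) in males, a difference of -0.09 (SE 0.50). For Gpnmb it was 2.58 (SE 0.61) in females and 2.71 (SE 0.65) in males, a difference of 0.13 (SE 0.86). None of the 9 genes passed edgeR's test of that difference, with a background of 0.0% (0 of 17558 genes, with 1063 at an unadjusted p under 0.05); the largest values among the 9 were 0.70 for Cd44 (SE 0.35, adjusted p = 0.817) and -0.60 for Cd68 (SE 0.34, adjusted p = 0.830). With these errors the values do not show that the sexes respond alike. Without the 3 libraries whose name letter differs from their label the difference was -0.51 (SE 0.48) for Spp1 and -0.56 (SE 0.85) for Gpnmb. Over all treatments males and females differed by 0.05 for Spp1 (SE 0.20) and -0.29 for Gpnmb (SE 0.35), and 0 of the 9 genes passed, beside a background of 0.0342% (0.0114% higher and 0.0228% lower in males).

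Other genes of the osteopontin pathway were taken from fixed lists. Of 7 further integrin chains that can bind osteopontin, 5 were higher and 2 lower in Dehydrated, and 0 passed (median log2 difference 0.18). Without Control M01 the counts were 4 and 3 (median 0.08). Itga5 was at 14.03 ± 2.69 CPM in Dehydrated against 12.4 ± 2.72 CPM in Control (0.18, SE 0.15), and Itga4, a partner for leukocyte adhesion, at 7.43 ± 1.99 against 5.36 ± 2.26 CPM (0.44, SE 0.23). Itga8 differed by -0.05 (SE 0.27).

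Of 12 other ligands of these integrins 8 were higher and 4 lower (median 0.12, and 0.05 without Control M01). Among them 1 passed in Dehydrated, beside a background of 0.114% of all genes called higher: Thbs1, the matricellular protein thrombospondin-1. Its level went from 11.6 ± 3.73 to 22.5 ± 7.54 CPM, a log2 fold change of 0.94 (SE 0.18, adjusted p = 0.0177 by edgeR), and was at 13.1 ± 2.39 CPM in Rehydrated. As the ligand list was chosen with earlier results of these data known, the Thbs1 values are a description, and nothing is read from the count. The most abundant ligands were Edil3 (185 ± 14.7 CPM in Dehydrated, difference 0.15, SE 0.15), Mfge8, which bridges dying cells to phagocytes (131 ± 20.6 CPM, 0.00, SE 0.13), and fibronectin, Fn1 (111 ± 28.03 CPM, 0.13, SE 0.26).

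Of the 4 bone phosphoprotein relatives of Spp1, 1 was matched, Dmp1, at 0.837 ± 0.894 CPM in Control, too low to be tested. Among 5 proteases that cut osteopontin only Mmp9 could be tested, with a difference of 0.30 (SE 0.39). Of 6 matched genes around Gpnmb, its sheddases, its partner syndecan-4 and the MiT transcription factors, 1 was higher, 5 were lower and 0 passed. The sheddase Adam10 differed by 0.10 (SE 0.08), syndecan-4 (Sdc4) by -0.19 (SE 0.10) and Tfe3 by -0.01 (SE 0.06).

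Counts of phagocyte genes above and below their Control level in Dehydrated moved with 1 library, Control M01. They moved most in the microglia and lysosome lists and little in the activated phagocyte list. With all libraries, of 18 homeostatic microglia genes 7 were higher and 11 lower (median -0.08), of 11 activated phagocyte genes 2 and 9 (median -0.14), of 10 phagocytic receptors 3 and 7 (median -0.12), of 21 lysosome genes 5 and 16 (median -0.04), and of 6 border macrophage genes 2 and 4 (median -0.10). In each of these lists 0 genes passed in either direction, and over all tested genes the median was 0.00 and 49.2% were higher. Without Control M01 the microglia list had 13 higher and 5 lower (median 0.09), the activated phagocyte list 3 and 8 (median -0.09), the phagocytic receptors 5 and 5 (median -0.01), the lysosome list 12 and 9 (median 0.03) and the border macrophages 3 and 3 (median 0.02), with 0 past the threshold, beside 50.9% of all genes higher. Summed levels of the homeostatic microglia genes spanned 206 to 733 CPM in Control, 252 to 385 CPM in Dehydrated and 276 to 465 CPM in Rehydrated. Those of the activated phagocyte genes spanned 2335 to 5274, 2746 to 4476 and 2363 to 3267 CPM, and none of the matched genes in these lists was at 0 in all libraries. Of 16 magnocellular genes 11 were higher and 5 lower (median 0.26), beside 49.2% of all genes higher. Of the 16, 4 rose, beside a background of 0.114% of all genes, and 3 passed without Control M01. The 4 were Avp (1.81, adjusted p = 0.0388), Pdyn (1.13, adjusted p = 0.00369), Caprin2 (0.98, adjusted p = 0.0109) and Pcsk1 (1.39, adjusted p = 0.00369). The magnocellular list was chosen with earlier results of these data known, so these values are a description and nothing is read from their count. Among lists for other cells of the punch, oligodendrocyte genes were lower in 6 of 6 (median -0.34), meningeal fibroblast genes in 7 of 10 (median -0.22) and astrocyte genes in 4 of 10 (median 0.02, and 7 of 10 with a median of -0.03 without Control M01), with 0 genes past the threshold, and their part in the results was not tested.

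The most abundant genes of these lists had small differences. Csf1r, the growth factor receptor of microglia, was at 66.3 ± 8.54 CPM in Dehydrated and 64.3 ± 10.6 CPM in Control (difference 0.05, SE 0.11). Apoe, the lipid carrier made by astrocytes and activated microglia, was at 2885 ± 490 and 3185 ± 853 CPM (-0.15, SE 0.12), and Fabp5 differed by -0.29 (SE 0.13). Among the next most abundant genes, the microglial factor Sall1 differed by -0.03, Olfml3 by -0.10 and the tetraspanin Cd9 by -0.23. The receptors for engulfment Lrp1, Tyro3 and Megf10 differed by 0.10, -0.03 and 0.12. The lysosomal genes Psap, Ctsb and Atp6v0d1 differed by 0.03 (SE 0.05), -0.05 (SE 0.06) and -0.05.

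Whether Spp1 goes with Avp or with phagocytes between animals was then asked on values that the choice of Spp1 and Gpnmb did not use. The genes and lists set beside Spp1 were chosen with earlier results of these data known. Each library's log2 CPM was taken as its deviation from its treatment's mean, and r was computed over the 29 libraries with 2-sided permutations within treatment. Spp1 and Avp had r = 0.456 (permutation p = 0.0005, adjusted p = 0.0075 over 30 relations), with deviations of the same sign in 18 of 29 libraries, Spearman rho 0.489 (adjusted p = 0.0851) and r = 0.446 without the 2 libraries farthest in Avp. Spp1 and Pdyn had r = 0.721 (permutation p = 0.0002, adjusted p = 0.006), with the same sign in 22 of 29 libraries, rho 0.507 (adjusted p = 0.0847) and r = 0.623 without the 2 farthest libraries. For the mean of 16 magnocellular genes, Avp and Pdyn among them, r was 0.599 (permutation p = 0.00104, adjusted p = 0.0104), while rho was 0.271 (adjusted p = 0.465), with the same sign in 18 of 29 libraries.

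Relations of Spp1 with the phagocyte lists had a smaller r than those with Avp and Pdyn, while their rho and same-sign counts were not all smaller. The mean of 18 homeostatic microglia genes had r = 0.159 (permutation p = 0.281, adjusted p = 0.562, rho 0.240), the same sign in 21 of 29 libraries, and r = 0.031 without Control M01. The mean of 11 activated phagocyte genes had r = 0.206 (permutation p = 0.281, adjusted p = 0.562, rho 0.156), the same sign in 15 of 29 libraries, and r = 0.117 without Control M01. Among the 9 genes, r with Spp1 was 0.069 for Trem2, 0.016 for Cd68 and 0.179 for Lgals3, and border macrophage genes had r = 0.209 (adjusted p = 0.436). Lysosome genes did pass: r = 0.362 (permutation p = 0.00512, adjusted p = 0.0307, rho 0.533 with adjusted p = 0.0847), with the same sign in 24 of 29 libraries, a larger rho than that of Avp or Pdyn. Without Control M01 that r was 0.346 (permutation p = 0.0578), and without the 2 farthest libraries 0.291 (permutation p = 0.0566). No test compared one r with another.

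Spp1 and Gpnmb went together with r = 0.523 (permutation p = 0.00218, adjusted p = 0.0163, rho 0.502 with adjusted p = 0.0847), the same sign in 20 of 29 libraries and r = 0.407 without the 2 farthest libraries. By the letter in the library name r was 0.641 in 14 F-named libraries and 0.020 in 15 M-named libraries, a difference that was not tested. None of the other 7 genes had a relation with Spp1 that passed; the largest were Itgb1 (r = 0.325, adjusted p = 0.438) and Itgav (r = -0.254, adjusted p = 0.179, and -0.174 without Control M01). None of the relations of Gpnmb with Avp (r = 0.149, adjusted p = 0.737), the other 7 genes or the lists passed. The largest of them was that with Lgals3 (r = 0.355, adjusted p = 0.412).

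**Figure D4:**
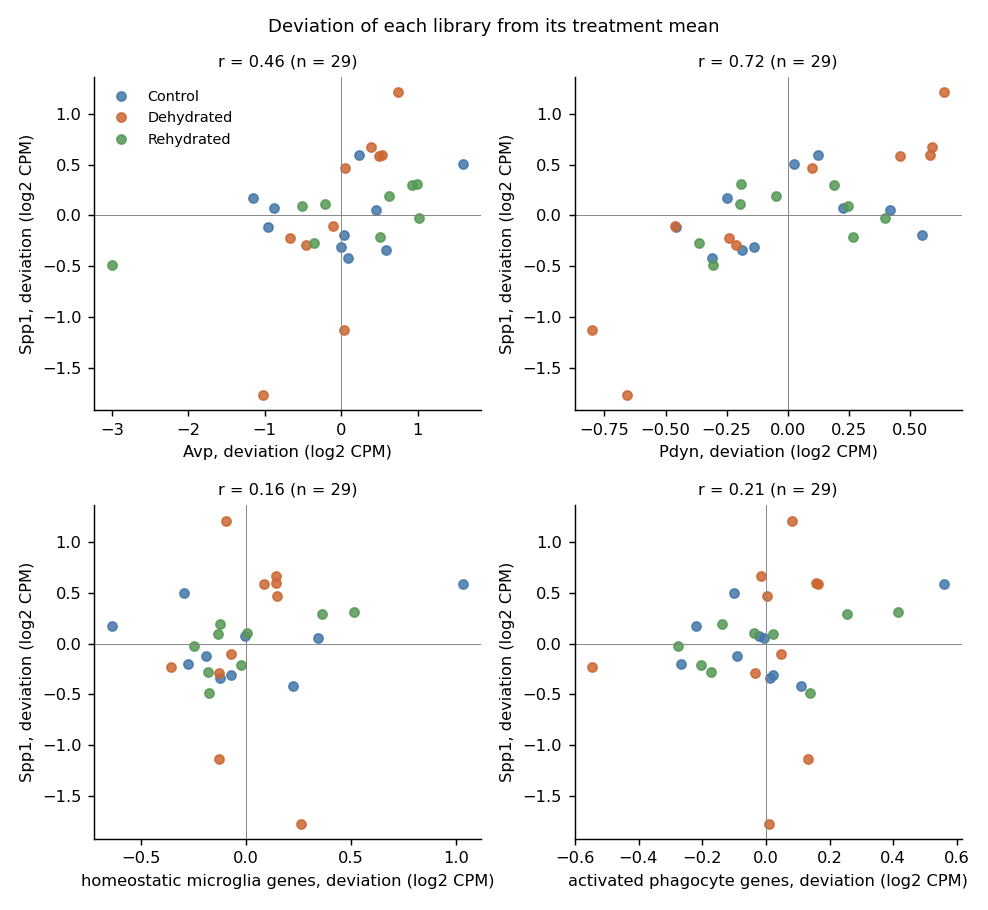
Deviation of Spp1 from its treatment mean (log2 CPM, vertical) against that of Avp, Pdyn, the mean of 18 homeostatic microglia genes and the mean of 11 activated phagocyte genes, with 1 point per library coloured by treatment. The points rise together for Avp (r = 0.456) and Pdyn (r = 0.721), most clearly in Dehydrated, and r is smaller for the 2 phagocyte lists (0.159 and 0.206). Deviations had the same sign in 21 of 29 libraries for the microglia list, against 18 of 29 for Avp. Lysosome genes (r = 0.362) are not drawn.

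The same relations were computed inside each treatment. In Dehydrated (n = 10) r with Spp1 was 0.909 for Pdyn (permutation p = 0.00015, adjusted p = 0.00765 over 90 relations), 0.915 for the magnocellular mean (permutation p = 0.00017, adjusted p = 0.00765) and 0.824 for Avp (permutation p = 0.00326, adjusted p = 0.0978). It was -0.001 there for homeostatic microglia, 0.146 for activated phagocytes and 0.446 for lysosome genes. Spearman's rho in Dehydrated was 0.939 for Pdyn, 0.939 for the magnocellular mean and 0.879 for Avp, and r without the 2 libraries farthest in each measure was 0.861, 0.853 and 0.725. Of the 90 relations within a treatment, those 2 with Pdyn and the magnocellular mean passed.

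In Control and Rehydrated, where Spp1 spanned a narrower range, no relation passed. In Control (n = 10) r was 0.261 for Pdyn, 0.219 for Avp and -0.155 for the magnocellular mean, with adjusted p of at least 0.891 by permutation. Larger values with Spp1 there were those of Trem2 (0.656), Gpnmb (0.626) and Itgav (-0.655), with adjusted p of at least 0.303 by permutation. Lysosome genes had 0.563 there, activated phagocytes 0.350 and homeostatic microglia 0.295. Without the 2 libraries farthest in each list these were -0.252, -0.697 and -0.247. In Rehydrated (n = 9) r with Spp1 was 0.281 for Pdyn (adjusted p = 0.891), 0.735 for Avp (adjusted p = 0.303) and 0.653 for homeostatic microglia (adjusted p = 0.460), each by an exact permutation test. Lysosome genes had 0.703 there (adjusted p = 0.399 by the same test). Spearman's rho in Rehydrated was 0.767 for homeostatic microglia, 0.683 for lysosome genes, 0.617 for Avp and 0.183 for Pdyn. Gpnmb had r = 0.718 with Avp in Dehydrated (permutation p = 0.0202, adjusted p = 0.303), 0.081 in Control and -0.113 in Rehydrated. Differences of r between treatments were not tested.

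Gene by gene, the likeness to Spp1 over the 29 libraries is given as a description, in which all points share the same libraries and depth. The 16 magnocellular genes had a median r of 0.351 with Spp1, against a median of -0.015 over the 15132 genes compared. Of the 16, 13 were above 0, beside 47.6% of all genes compared. Other lists were above 0 in 17 of 21 lysosome, 12 of 18 homeostatic microglia, 6 of 6 oligodendrocyte, 5 of 10 activated phagocyte and 1 of 8 endothelial genes. In Dehydrated alone the magnocellular median was 0.748, from 0.983 for Pcsk1, a prohormone convertase, to -0.799 for its relative Pcsk2. Oxt, which differed by -0.07 between Dehydrated and Control (SE 0.35), had r = 0.243 over all libraries and 0.407 in Dehydrated. For other lists the median in Dehydrated alone was 0.339 for phagocytic receptors, 0.325 for border macrophages and 0.277 for astrocytes. It was 0.160 there for lysosome, 0.128 for activated phagocyte and -0.044 for homeostatic microglia genes. Over the 29 libraries the median r with Spp1 was 0.086 for homeostatic microglia, 0.023 for activated phagocytes and 0.051 for phagocytic receptors. It was 0.147 for lysosome, 0.194 for border macrophage and -0.103 for astrocyte genes. Single genes of these lists lay well above their medians, with r = 0.453 for Csf1, a growth factor for microglia, 0.387 for the Fc receptor Fcgr2b, 0.462 for the border macrophage gene F13a1, and 0.531 and 0.463 for the lysosomal proteases Ctsz and Lgmn. Pcsk2, Oxt and these 5 genes were chosen after their values were seen.

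**Figure D5:**
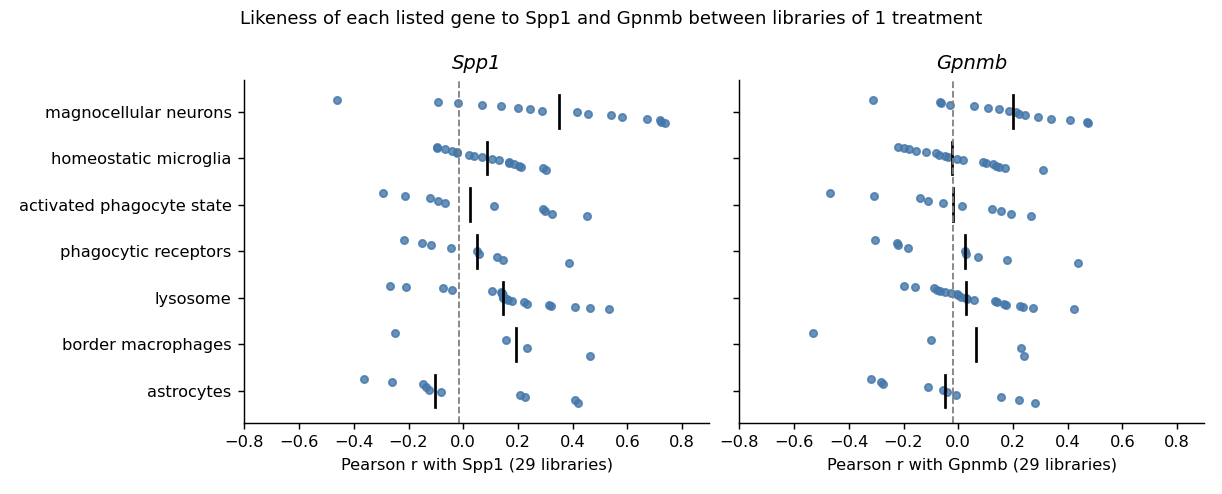
Pearson r over 29 libraries, after removal of treatment means, of each listed gene with Spp1 (left) and Gpnmb (right), with 1 point per gene, a black bar at each list's median and a dashed line at the median of all genes compared. Of the 7 lists drawn, the magnocellular genes have the highest median for both, 0.351 with Spp1 and 0.199 with Gpnmb.

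Among genes whose mean log2 CPM was 1 or more, the 8 most like Spp1 were the linker histone H1f2 (r = 0.745), Caprin2, which binds Avp mRNA (0.737), the peptide precursor Cartpt (0.723), Pdyn (0.721), the actin capper Tmod1 (0.710), Acsm5 (0.703), Mmrn2 (0.702) and Popdc3 (0.698). Caprin2, Pdyn and Tmod1 were higher in Dehydrated by 0.98, 1.13 and 1.37 on the log2 scale, and H1f2 by 0.08. Of all genes compared, 99.5% had a lower r with Spp1 than Gpnmb, and 98.5% a lower r than Avp. The genes most like Gpnmb that carry a name were Tmem126a (0.727), Timm17a (0.678), Efnb1 (0.656) and Hbs1l (0.634), none of which differed by over 0.05 on the log2 scale between Dehydrated and Control, and the other 4 of its 8 have no symbol.

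Finally, the fit of Dehydrated against Control was repeated with 1 further covariate at a time, as a description of values that chose these genes. A covariate with nearly equal group means can take up little of a treatment difference. The mean of the homeostatic microglia genes was 3.52 log2 CPM in both Control and Dehydrated, and that of the lysosome genes 6.08 and 6.05. The activated phagocyte mean was 4.57 in Control and 4.38 in Dehydrated, lower where Spp1 was higher. Nothing is therefore read from the values beside the lists. The log2 difference of Spp1 was 1.68 (SE 0.25) beside the homeostatic microglia mean, 1.80 (SE 0.26) beside the activated phagocyte mean and 1.72 (SE 0.24) beside the lysosome mean. It was 1.05 (SE 0.30) beside Avp and 0.36 (SE 0.28) beside Pdyn, the latter chosen after seeing the data. The difference of Gpnmb was 2.65, 2.74 and 2.69 beside the same 3 lists, 2.21 (SE 0.56) beside Avp and 1.41 (SE 0.52) beside Pdyn. Avp and Pdyn were themselves higher in Dehydrated, so within these fits the covariate and the treatment cannot be told apart.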

How the data were processed

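Whole fragments were counted for each gene by the authors; per the file headers these deposited counts come from featureCounts 1.6.2, run on read pairs with Ensembl gene models of mJacJac1 and without strand. The aligner was not given in the sources used here. Deposited beside the counts, the authors' tables of comparisons hold log2 fold changes and p-values, and DESeq2 is named in the submitters' processing notes; 56 further columns with a value per library were not used. Those tables name 5 of the 9 genes. Cd44, Itgb1, Trem2 and Cd68 were matched to RefSeq symbols by overlap of gene spans (at least 0.5 of both).

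Group and sex were fitted to the counts of all 29 libraries with the robust quasi-likelihood test of edgeR 4.0.16 (R 4.3.3, filterByExpr, TMM, 25 residual degrees of freedom, Benjamini-Hochberg threshold 0.05), checked on simulated data. The filter removed 11612 genes with 0.126% of the counts. CPM values used TMM-scaled totals. Relations used log2 CPM (prior count 2) and 100000 permutations, or all orders of 9 libraries, in Python 3.11.15 with numpy 2.4.6. Alternatives were DESeq2 1.42.0, RLE size factors, no filter, other covariates, a replicate block and each library left out. The genes, the lists and the rule for named genes were chosen with earlier results of these data known. That rule takes all 9, Avp, the 3 most abundant tested genes of each list described, pathway genes past the threshold, and the 8 genes most like Spp1 and Gpnmb.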

Additional observations from a re-analysis of the deposited data

Results flagged for a closer look

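Among 27 sets of libraries (9 genes in 3 treatments), 5 held a library whose gap to its nearest neighbour was large for the range of its group by Dixon's criterion, which flags about 1 in 20 by chance. Control M01 had the lowest Itgav level, 18.5 CPM against 93.0 CPM in the next library, and the highest Cd68 level of its group, 15.2 CPM against 9.17 CPM. Rehydrated M05 had the highest Itgb1 level, 217 CPM against 181 CPM. Lgals3 was highest in Dehydrated M06, 31.7 CPM against 23.9 CPM, and in Rehydrated M01, 37.2 CPM against 22.9 CPM. No library was far from the others for Spp1 or Gpnmb by this criterion.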

How the results depend on the processing

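The count for Dehydrated against Control (22 genes) was 39 with DESeq2, 40 with DESeq2 without Control M01, 11 with only the compared groups and 10 to 27 with each library left out. The 10 came on leaving out Control F01 or M03 or Dehydrated M06. Leaving out a single library of F05 (Control or Dehydrated) gave 11, of Dehydrated M09 or Control M05 12, of Control M04 or F06 13, and of Dehydrated M08 or F06 or Control F03 14. For Rehydrated against Control (0 genes) it was 18 with DESeq2, 3 with DESeq2 without Control M01 and 0 to 2 with a library left out, the 2 without Rehydrated M05. For Rehydrated against Dehydrated (4 genes) it was 13 with DESeq2, 16 with DESeq2 without Control M01, 1 with only the compared groups and 2 to 9 with a library left out: 9 without Dehydrated F07, 7 without Dehydrated M02 and 2 in 18 other fits (Control M05, M03, F05, F03 or F01; Dehydrated M09, M06, M05, F06, F05 or F04; Rehydrated M06, M05, M04, M01, F06, F04 or F03). Male against female had 16 genes with no filter, and the sex difference had 4 genes, none of the 9 among them, without the 3 libraries whose name letter differs from their label.

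The Rehydrated against Control difference of Spp1 ran from -0.040 to 0.082 with a library left out, changing sign in 12 of 29 fits and passing in 0. The r of Spp1 with homeostatic microglia was -0.020 without the 2 farthest libraries and 0.031 to 0.339 with a library left out, the highest without Dehydrated F07 (permutation p = 0.0312). With lysosome genes it was 0.291 without the 2 farthest libraries and 0.330 to 0.416 with a library left out, and with the magnocellular mean Spearman's rho was 0.271. Alternatives for Pdyn, the magnocellular mean, Gpnmb and the 3 libraries with other letters were chosen after seeing the data.

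With a replicate block on the letter and number of the library name, Spp1 differed by 1.99 and 0.07 and Gpnmb by 3.74 and 1.68 in Dehydrated and Rehydrated against Control. The block gave 15, 0 and 7 genes in the 3 comparisons. Same-named libraries had correlations of deviations of -0.115 to 0.110, so the names give no pairing. Of the values with no library left out singly, 397 kept their direction and side of the threshold or moved by less than the spread, 10 gained the threshold or a higher count, 5 lost it or had a lower one, 3 moved and 1 changed sign. Trem2, with 26 to 120 fragments per library, and Gpnmb, with 0 to 393, rest on the fewest fragments of the 9 genes.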
